A study of Mus musculus with 53 samples.

Results

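Wild-type (WT) mouse embryonic fibroblasts (labelled MEF), connective tissue cells grown from embryos, had received decitabine (labelled DAC) or its solvent DMSO before total RNA was sequenced. The comparison rests on 3 WT DAC and 2 WT DMSO libraries, which are 5 of the 22 RNA libraries and of the 53 samples of the series. It was described across the 16434 genes that reached 1 FPKM, fragments scaled to gene length and library size, in at least 2 of the 10 libraries of the decitabine table. The other 5 libraries of that table, from cells labelled as a knockout of Anp32e (KO) under DMSO (2 libraries) or DAC (3 libraries), entered the fit so that all 4 groups shared one estimate of the spread. The design text states that the study compared H2A.Z occupancy and RNA in WT and ANP32E-KO fibroblasts given decitabine or DMSO. Strain, embryonic day, dose and time of treatment were not stated in the sources used here. The labels call the libraries biological replicates, but nothing says that they came from separate cultures, so every p-value measures only the spread between these samples.

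Decitabine is a cytidine analogue that is built into replicating DNA, where it traps DNA methyltransferases, so that methylation is lost as cells divide. Promoters that are methylated in somatic cells, such as those of many germline genes, are known to become active after such treatment. In many cell types demethylation also releases transcripts of endogenous retroviruses and other repeats, whose double-stranded RNA or DNA can be sensed by receptors that switch on interferon-stimulated genes, while trapped enzyme on DNA can activate p53.

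The 5 WT libraries held 30675011 to 33877184 reads, as recovered from the steps between the deposited values, and 14129 to 14570 genes at 1 FPKM or more in each. One read in a gene of 1 kb was worth 0.0295 to 0.0326 FPKM. Replicate 3 of WT DAC stood apart from replicates 1 and 2: across genes, which are not independent replicates, it correlated with them at 0.979 and 0.981, while those libraries correlated with each other at 0.987. It also had 4.88% of its reads on mitochondrial genes, against 3.26% and 3.60%. Upk3b, a uroplakin gene of mesothelium, was at 0.0556 and 0.108 FPKM in DMSO and 0.0659, 0.0252 and 2.06 FPKM with decitabine, while the KO DMSO libraries had 372 and 396 FPKM, and the part of this trace signal in the results was not tested. Results were therefore also computed without that library.

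A gene was called when its limma adjusted p, by the method of Benjamini and Hochberg over all 16434 genes, was under 0.05, and "rose" or "fell" is used only of called genes. Of the genes tested, 2384 rose (14.5%) and 2274 fell (13.8%), together 28.3%, and at an unadjusted p under 0.05 there were 6436. Differences are given as log2 of FPKM plus 1, decitabine minus DMSO, with the standard error (SE), and the median difference of all genes was −0.01. In bulk RNA, fewer cells of a type and less RNA per cell cannot be told apart. Most changes were modest: 319 genes rose and 277 fell by 2-fold or more on that scale, and 48 rose and 9 fell by 4-fold or more. Every called gene had no overlap between its decitabine and DMSO libraries, a condition that 53.7% of all tested genes met. Without WT DAC replicate 3 the counts were 2612 and 2127. Without WT DMSO replicate 2 they were 1325 and 1166, the lone DMSO library then being assumed to vary like the other groups. The plot of group means shows the called genes on both sides of the diagonal, with the largest rises among genes that were low in DMSO.

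**Figure D1:**
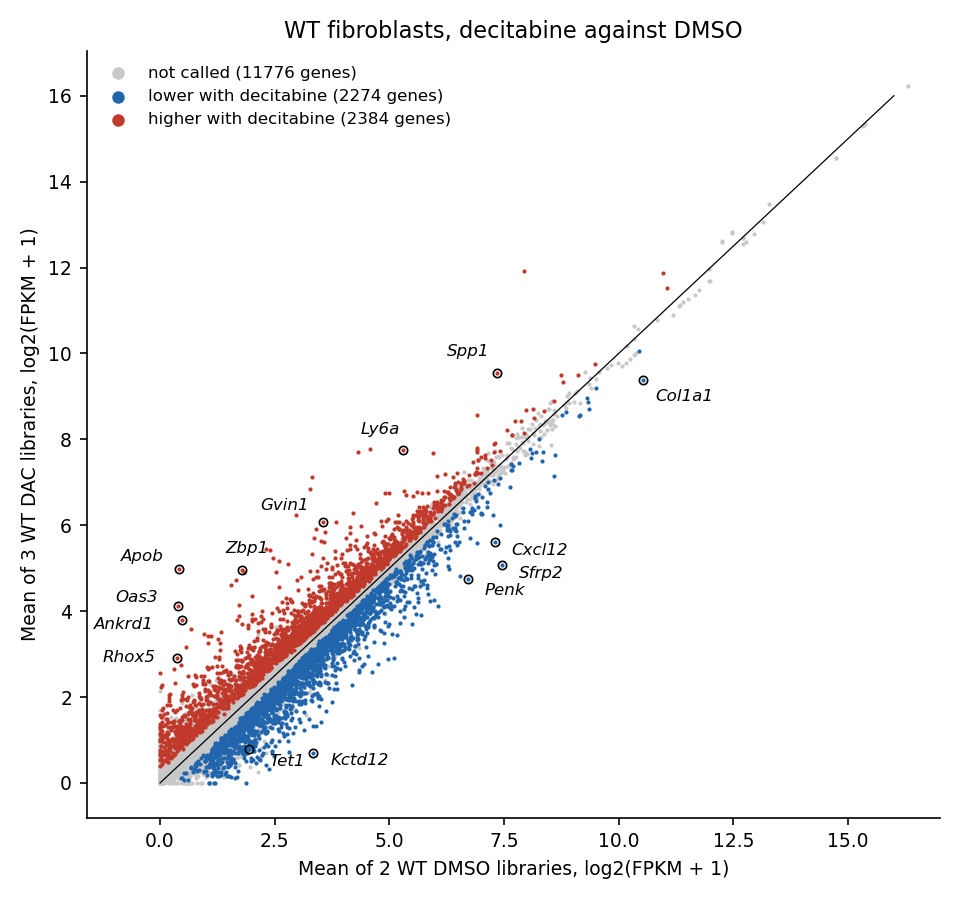
Mean log2(FPKM + 1) of each tested gene in the 2 WT DMSO libraries (x axis) and the 3 WT DAC libraries (y axis). Red points are the 2384 genes that rose, blue points the 2274 that fell and grey points the genes that were not called; the line marks equal levels and circles mark genes named in the text.

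The level in DMSO limited which direction could be seen. Among the 354 tested genes with a mean of 0.1 FPKM or less in DMSO, 57 rose and none fell, since a gene at that level has no room to fall and passed the filter only through other libraries. Among the 1689 genes between 0.1 and 1 FPKM, 320 rose and 28 fell. From 1 to 5 FPKM, where both directions could be measured, 569 of 6108 rose and 734 fell, and from 5 to 20 FPKM 939 of 5763 rose and 1051 fell. By chromosome, median differences lay between −0.05 and 0.08. On the X chromosome 64 of 545 tested genes rose (11.7%, beside 16% of autosomal genes) and 93 fell (17.1%, beside 14.2%). The share that rose was the lowest of any chromosome, while autosomes such as 18 (21%) and 10 (19.8%) had larger shares that fell.

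Genes of the germline, which somatic cells keep silent in part through promoter methylation, were among those that appeared from nothing. Sohlh2, a transcription factor of early germ cells, had no read in either DMSO library and 119, 117 and 104 reads in the decitabine libraries, which corresponds to 1.56, 1.46 and 1.37 FPKM. Slc25a31, the testis form of the mitochondrial ADP/ATP carrier, was likewise without a read in DMSO and had 57, 56 and 50 reads with decitabine. Tex13b, an X-linked gene of spermatogonia, went from 0 reads in both DMSO libraries to 205, 178 and 160. Against a floor of 3 reads over both DMSO libraries together, these levels were at least 71.7-fold higher for Sohlh2, 34.4-fold for Slc25a31 and 115-fold for Tex13b. All 3 decitabine libraries of each gene were high and both DMSO libraries were empty.

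The promoters of these genes are shown because they were the silent ones that came on, together with that of Stag3, a meiotic cohesin subunit that was already transcribed in DMSO. Each line gives the 250 bases before the RefSeq start site (GRCm38.p6), 5′ to 3′ on the gene's strand, with every CpG dinucleotide, the site of DNA methylation, in capitals. They lie at chr3:55181794-55182043, plus strand for Sohlh2, chr3:40708621-40708870, plus strand for Slc25a31, chrX:140813434-140813683, minus strand for Tex13b and chr5:138280259-138280508, plus strand for Stag3.
Sohlh2: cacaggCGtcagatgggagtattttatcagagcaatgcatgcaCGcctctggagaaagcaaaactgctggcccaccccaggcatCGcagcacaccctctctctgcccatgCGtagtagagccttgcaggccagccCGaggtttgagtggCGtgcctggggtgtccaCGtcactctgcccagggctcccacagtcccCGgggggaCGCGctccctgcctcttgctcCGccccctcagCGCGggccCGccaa
Slc25a31: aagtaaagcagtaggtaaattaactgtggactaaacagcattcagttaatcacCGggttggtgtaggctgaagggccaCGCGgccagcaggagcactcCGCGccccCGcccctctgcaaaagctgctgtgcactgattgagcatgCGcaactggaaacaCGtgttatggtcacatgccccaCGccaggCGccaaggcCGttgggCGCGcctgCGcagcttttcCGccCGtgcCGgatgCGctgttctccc
Tex13b: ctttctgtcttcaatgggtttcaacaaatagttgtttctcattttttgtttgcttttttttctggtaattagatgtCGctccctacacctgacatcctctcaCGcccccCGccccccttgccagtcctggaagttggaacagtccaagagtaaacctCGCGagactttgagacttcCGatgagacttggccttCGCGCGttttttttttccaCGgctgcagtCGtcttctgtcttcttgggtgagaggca
Stag3: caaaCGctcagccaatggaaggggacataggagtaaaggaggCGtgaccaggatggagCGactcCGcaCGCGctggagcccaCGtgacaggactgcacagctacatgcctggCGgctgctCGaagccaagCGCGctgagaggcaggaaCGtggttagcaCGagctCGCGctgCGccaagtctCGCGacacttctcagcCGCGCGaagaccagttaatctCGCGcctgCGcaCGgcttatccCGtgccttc
These windows hold 14, 18, 11 and 26 CpG. The E-box CACGTG, a palindrome searched on both strands and without overlap with the other motifs searched, occurred in 15 of the 30 germline genes with a promoter window of 300 bases (50%), Slc25a31 and Stag3 among them. It occurred in 7.24% of all 27025 windows of the RefSeq table. The germline windows had a median of 20 CpG and an observed over expected CpG ratio of 0.759, while the median over all windows was 7 CpG and a ratio of 0.389. The X-linked reproductive list, to which Tex13b belongs, did not share this. Its 31 windows had a median of 7 CpG and a ratio of 0.363, and 2 of them held CACGTG (6.45%). CACGTG itself holds a CpG, and its share was not compared at equal CpG content. That share was 26.7% in the list of H2A.Z and its chaperones (median 19 CpG). It was 16.7% in the DNA replication list (median 21.5 CpG) and 4% in the mitosis list (median 24 CpG). Such a match is a description of the sequence only. Only 61.5% of all tested genes had a window, so a comparison of CpG content between genes that rose and fell is void and its values are not given.

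Activation of germline genes was partial. Stag3 rose from 2.695 and 2.76 FPKM to 7.46, 6.24 and 6.29 FPKM (difference 1.04 ± 0.08, limma adjusted p = 5.77e-05), and Tex15, a factor of meiotic recombination and transposon silencing, went from 1.399 and 1.46 FPKM to 2.51, 2.97 and 3.11 FPKM (difference 0.67 ± 0.14, limma adjusted p = 0.0094). Dazl, an RNA-binding protein that licenses germ cells, was at 0 in both DMSO libraries and at 0.294, 0.201 and 0.467 FPKM with decitabine (limma adjusted p = 0.0332). Tex19.1, which represses retrotransposons in germ cells, and Taf7l, a testis form of a TFIID subunit, also rose, but stayed under 0.7 FPKM in every WT library. The low genes were not stable calls: without WT DMSO replicate 2 the limma adjusted p was 0.138 for Dazl, 0.0655 for Tex19.1 and 0.0557 for Tex15, and without WT DMSO replicate 1 it was 0.119 for Dazl, 0.056 for Tex15 and 0.224 for Taf7l. Without WT DAC replicate 3 it was 0.0791 for Dazl and 0.0795 for Taf7l, and without WT DAC replicate 1 it was 0.067 and 0.0681. Without WT DAC replicate 2 it was 0.0756 for Taf7l. Of the 34 germline genes listed, only 9 passed the filter, 7 of which were under 1 FPKM in both DMSO libraries and passed through others, so that their count says little of the list. Some members had lower values with decitabine: Sycp3, a component of the synaptonemal complex, was at 0.928 and 1.08 FPKM in DMSO and 0.465, 0.304 and 0.494 FPKM with decitabine, and Ddx4, the germ cell helicase, was at 0.252 and 0.357 FPKM in DMSO and 0.163, 0.0829 and 0.131 FPKM with decitabine. Mael and Rpl10l had no read in any WT library. The same held for the X-linked reproductive genes: Rhox5, a homeobox gene of Sertoli cells and placenta, rose from 0.259 and 0.337 FPKM to 6.07, 8.26 and 5.299 FPKM, and Xlr3c from 0.391 and 0.321 FPKM to 1.13, 0.727 and 0.906 FPKM, while 11 of the 35 listed were at 0 in all 5 WT libraries. Xlr3 genes have near-identical copies, so their single values are uncertain, and Xlr3c lost its call without any one of 4 libraries (limma adjusted p = 0.0855 without WT DMSO replicate 1, 0.147 without WT DMSO replicate 2, 0.08 without WT DAC replicate 1 and 0.0545 without WT DAC replicate 3).

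**Figure D2:**
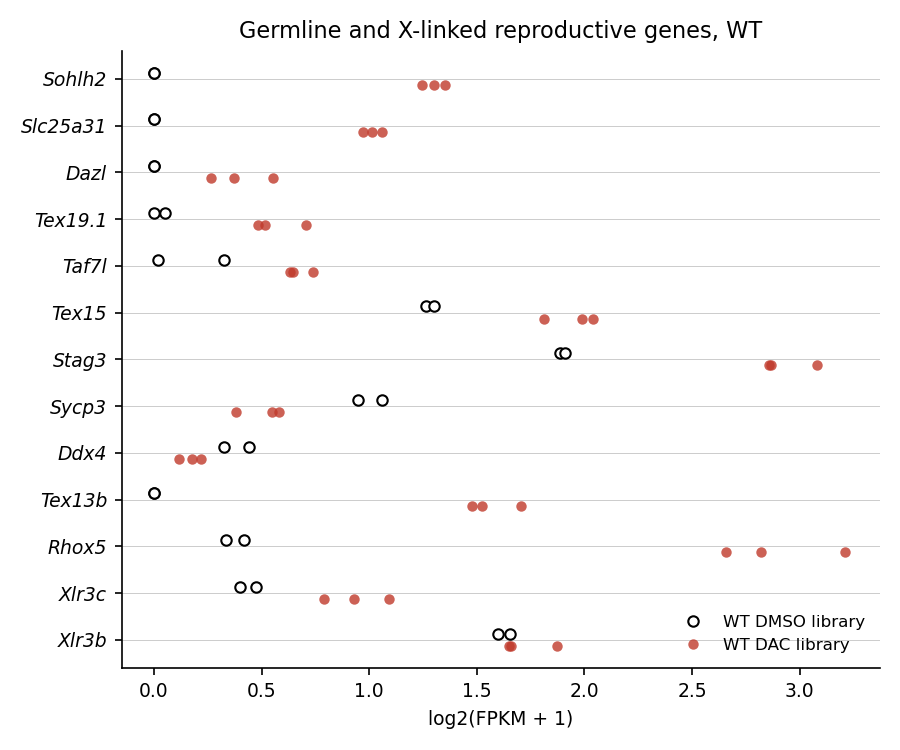
Level of 13 germline and X-linked reproductive genes in each WT library, as log2(FPKM + 1), with open circles for the 2 DMSO libraries and red points for the 3 decitabine libraries. Sohlh2, Slc25a31, Dazl and Tex13b sit at 0 in DMSO and above 0 in every decitabine library, while Sycp3 and Ddx4 lie lower with decitabine.

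Of the 21708 genes at 0.1 FPKM or less in both DMSO libraries, only 14 were at 1 FPKM or more in all 3 decitabine libraries. Those with established names included Wnt10a, Serpinb6b, Tex13b, Tuba3b, Cxcl3, Serpinb9g and Sohlh2. Wnt10a, a Wnt ligand, was at 0.0528 and 0.0257 FPKM in DMSO and 2.94, 1.95 and 2.09 FPKM with decitabine. Tuba3b, an alpha-tubulin of testis, was at 0 and 0.0716 FPKM in DMSO and 2.33, 1.91 and 1.48 FPKM with decitabine, and like Serpinb6b and Serpinb9g it has close paralogs that could share reads. In 3 further WT libraries, labelled WT_NT_siRNA and normalised separately as RPKM, 8 of the 14 genes were at 0.1 RPKM or less in every library and none reached 1 RPKM in all 3. The opposite pattern, from 1 FPKM or more to 0.1 or less, was met by 3 of the 13827 genes at 1 FPKM or more in both DMSO libraries. All 3 were small RNA genes or predicted genes (Mir6942, Mir7689 and Gm22778). Leaving out any one of 4 libraries, which loosens the rule, gave 24 to 28 genes in place of 14 (26 and 28 without WT DMSO replicates 1 and 2, 24 and 25 without WT DAC replicates 1 and 3).

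Among the largest rises were predicted genes that are known to match satellite repeat sequence, the tandem DNA that packs pericentromeric heterochromatin and is normally methylated. They were picked after their values were seen. Gm10800 was at 177 and 313 FPKM in DMSO and 2551, 3162 and 5896 FPKM with decitabine, a ratio of means of 15.8 (difference 3.94 ± 0.46, limma adjusted p = 0.000376). Gm10801 was at 7.18 and 10.8 FPKM in DMSO and 92.1, 113 and 209 FPKM with decitabine, and Gm26870 at 7.07 and 10.3 FPKM in DMSO and 86.7, 99.5 and 158 FPKM with decitabine. All 13 such loci that were tested rose, with differences from 1.84 to 3.94, and together they took 0.0184% and 0.0313% of reads under DMSO and 0.239%, 0.294% and 0.536% with decitabine. Replicate 3 of WT DAC had the highest value at each of the 13 loci, 2.25 times the share of replicate 1. Reads of such repeats fit many places, so the single loci are uncertain and are not independent of one another. Their sequence was not checked here.

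Of 17 tested genes of the DNA methylation machinery 1 rose (5.88%, beside 14.5% of all genes) and 4 fell (23.5%, beside 13.8%), the TET enzymes and Dnmt3a. Dnmt1, the maintenance methyltransferase that decitabine traps, was at 58.8 and 60.8 FPKM in DMSO and 61.1, 59.04 and 48.9 FPKM with decitabine and was not called (difference −0.09 ± 0.11), and neither was its partner Uhrf1, at 36.2 and 35.2 FPKM in DMSO and 38.9, 35.4 and 36.1 FPKM with decitabine. Tet1, a dioxygenase that oxidises methylcytosine, fell from 2.71 and 2.95 FPKM to 0.603, 0.773 and 0.823 FPKM, a 3.86-fold lower mean (difference −1.15 ± 0.10, limma adjusted p = 6.91e-05). Tet2 fell by a difference of −0.52 ± 0.08 and Tet3 by −0.48 ± 0.06, and the de novo enzyme Dnmt3a fell from 5.88 and 6.47 FPKM to 4.12, 3.99 and 3.47 FPKM. Zbtb38, which binds methylated DNA, was the member that rose, from 4.58 and 3.98 FPKM to 7.73, 8.18 and 6.99 FPKM, and 12 were not called. Among 20 tested genes of H3K9 methylation and heterochromatin, 3 rose and 4 fell, close to the shares of all genes. Setdb1, the methyltransferase that silences retroviruses, fell slightly, from 12.7 and 12.6 FPKM to 11.4, 10.7 and 10.3 FPKM, a call that was lost without either DMSO library (limma adjusted p = 0.106 and 0.113) or without WT DAC replicate 2 (0.0657), and Suv39h1, a methyltransferase of pericentromeric heterochromatin, rose from 8.04 and 8.03 FPKM to 10.5, 10.3 and 9.85 FPKM.

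Of 16 tested genes of H2A.Z and its chaperones 2 rose and 2 fell (12.5% each way), close to the 14.5% and 13.8% of all genes. Anp32e, which removes H2A.Z from chromatin, was at 14.5 and 14.6 FPKM in DMSO and 17.2, 15.8 and 14.05 FPKM with decitabine, a difference of 0.10 ± 0.09 that was not called (limma adjusted p = 0.479). H2afz, the main H2A.Z gene, was at 103 and 99.2 FPKM in DMSO and 119, 114 and 84.9 FPKM with decitabine, and replicate 3 lay below both DMSO libraries. H2afv, the other H2A.Z gene, fell from 25.1 and 28.9 FPKM to 20.5, 19.6 and 16.5 FPKM (difference −0.50 ± 0.10, limma adjusted p = 0.00536), with an adjusted p of 0.0608 without WT DMSO replicate 2. Ruvbl2, an ATPase shared by the complexes that exchange H2A.Z, rose from 12.04 and 12.02 FPKM to 19.3, 20.8 and 18.99 FPKM.

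Sensors of foreign or displaced nucleic acid rose almost as a block. Of 21 tested sensors 19 rose and none fell, with a median difference of 0.88, beside 14.5% of all genes rising and a median of −0.01. Oas3, a synthetase that makes the messenger of RNase L on double-stranded RNA, was at 0.324 and 0.304 FPKM in DMSO and 16.8, 15.3 and 16.6 FPKM with decitabine. Both DMSO libraries were near 0 and the decitabine libraries were high and close together, a ratio of means of 51.7 (difference 3.71 ± 0.07, limma adjusted p = 4.98e-08). Oas3 was under 1 FPKM in the WT and KO DMSO libraries and passed the filter only through decitabine libraries, so its test is not separate support. Zbp1, a sensor of Z-form nucleic acid that can start necroptosis, was at 2.48 and 2.44 FPKM in DMSO and 32.3, 31.7 and 26.9 FPKM with decitabine (12.3-fold, limma adjusted p = 3.32e-06). Oasl1, an OAS-like protein, rose from 5.26 and 3.704 FPKM to 38.3, 39.999 and 32.1 FPKM, and Oas2 from 8.25 and 9.59 FPKM to 40.2, 38.5 and 38.1 FPKM. Oas genes are close paralogs, so their single values are uncertain. Eif2ak2, the kinase PKR, was not called, at 25.7 and 26.7 FPKM in DMSO and 26.9, 28.4 and 25.3 FPKM with decitabine.

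Effectors that interferon is known to induce followed. Among 29 tested effectors 21 rose and 1 fell, with a median of 0.56, and among 11 tested interferon-induced GTPases 10 rose and none fell, with a median of 0.77. Rsad2 (viperin), an antiviral enzyme that makes a chain-terminating nucleotide, rose from 3.36 and 2.702 FPKM to 18.9, 18.2 and 21.2 FPKM, and its genomic neighbour Cmpk2, a nucleotide kinase, from 3.51 and 3.76 FPKM to 13.5, 13.02 and 14.6 FPKM. Gvin1, a very large GTPase, went from 11.97 and 9.55 FPKM to 65.7, 67.4 and 65.9 FPKM (difference 2.52 ± 0.08, limma adjusted p = 1.59e-06). In the separately normalised WT_NT_siRNA libraries Gvin1 was at 46.3, 35.9 and 36.2 RPKM, above the DMSO values and below those with decitabine. Gbp2, a GTPase that attacks vacuoles of pathogens, rose from 18.2 and 17.7 FPKM to 43.7, 42.9 and 47.8 FPKM. Isg15, the ubiquitin-like modifier, was not called, at 91.03 and 103 FPKM in DMSO and 185, 163 and 103 FPKM with decitabine, and replicate 3 sat at the level of DMSO replicate 2. Without that replicate Isg15 was called, with a difference of 0.83 (limma adjusted p = 0.0124). Ifitm2, a membrane protein that blocks viral entry, was the 1 effector that fell, from 449 and 474 FPKM to 385, 393 and 411 FPKM, a call that was lost without any one of 4 libraries (limma adjusted p = 0.0713 and 0.207 without WT DMSO replicates 1 and 2, 0.0911 and 0.0884 without WT DAC replicates 1 and 2).

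Promoters of 3 genes from these groups are shown for the interferon-stimulated response element, a site read by IRF proteins. The form searched was GAAA, any 2 bases and GAAA on both strands, shown in capitals, in the 250 bases before the RefSeq start site (GRCm38.p6, 5′ to 3′ on the gene's strand). The windows lie at chr5:120777660-120777909, minus strand for Oas3, chr12:26456453-26456702, minus strand for Rsad2 and chr5:92348890-92349139, minus strand for Cxcl10.
Oas3: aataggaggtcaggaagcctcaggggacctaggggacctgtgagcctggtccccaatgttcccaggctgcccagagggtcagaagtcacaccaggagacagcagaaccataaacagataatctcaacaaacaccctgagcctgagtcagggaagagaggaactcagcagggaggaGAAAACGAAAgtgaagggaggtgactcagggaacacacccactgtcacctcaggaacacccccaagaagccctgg
Rsad2: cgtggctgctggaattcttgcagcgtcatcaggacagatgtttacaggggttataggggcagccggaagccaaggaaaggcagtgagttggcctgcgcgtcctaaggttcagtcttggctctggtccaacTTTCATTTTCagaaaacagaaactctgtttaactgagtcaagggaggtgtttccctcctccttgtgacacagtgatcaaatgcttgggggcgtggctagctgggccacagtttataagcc
Cxcl10: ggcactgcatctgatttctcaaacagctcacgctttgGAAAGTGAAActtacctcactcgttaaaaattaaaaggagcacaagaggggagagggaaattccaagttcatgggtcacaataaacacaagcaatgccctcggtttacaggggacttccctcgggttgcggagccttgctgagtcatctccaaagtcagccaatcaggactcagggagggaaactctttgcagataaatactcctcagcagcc
In contrast to the germline windows above they hold 1, 6 and 5 CpG. The motif was present in 3.49% of all 27025 windows of 300 bases. It was present in 5 of the 14 windows of the MHC class I list (35.7%). In the list of interferon ligands, receptors and signal transducers, of which 4 of 17 tested genes rose, it was present in 4 of 20 windows (20%). The 3 promoters shown were picked and do not stand for their lists. Fewer than 80% of the sensors, effectors and GTPases had a window, so no share is given for them.

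Antigen presentation by MHC class I rose in the same libraries. Of 16 tested genes 12 rose and none fell, with a median of 0.77. H2-K1, a classical heavy chain, was at 11.5 and 15.1 FPKM in DMSO and 73.8, 69.8 and 55.3 FPKM with decitabine, a 4.98-fold higher mean (limma adjusted p = 4.24e-05). H2-D1, the other classical heavy chain, rose from 26.5 and 31.8 FPKM to 115, 111 and 92.02 FPKM. B2m, the shared light chain, went from 1847 and 2151 FPKM to 3368, 3574 and 4265 FPKM, and Psmb8, a subunit of the immunoproteasome, from 0.822 and 0.999 FPKM to 4.38, 4.46 and 3.88 FPKM. H2-Q6, a non-classical heavy chain, rose from 3.44 and 6.61 FPKM to 33.1, 33.3 and 37.9 FPKM, but heavy chain genes are near-identical in parts and their single values are uncertain. Tapbp, which loads peptide, was not called, at 122 and 136 FPKM in DMSO and 149, 143 and 128 FPKM with decitabine.

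The interferon pathway upstream of these targets changed much less. Of 17 tested genes of ligands, receptors and signal transducers 4 rose and 1 fell, with a median of 0.03. Irf7, the factor that amplifies type I interferon production, rose from 19.3 and 20.6 FPKM to 67.9, 61.5 and 56.2 FPKM (difference 1.58 ± 0.11, limma adjusted p = 2.6e-05). Irf5 rose from 0.775 and 1.01 FPKM to 2.45, 2.17 and 2.15 FPKM, Irf1 from 7.101 and 7.69 FPKM to 10.01, 10.1 and 9.201 FPKM and Stat2 from 53.01 and 56.2 FPKM to 66.9, 65.1 and 62.9 FPKM. The small rises of Irf1 and Stat2 were lost without any one of 4 libraries, WT DAC replicate 3 being the exception: over these the limma adjusted p ran from 0.0603 to 0.132 for Irf1 and from 0.0921 to 0.201 for Stat2. Irf9, a partner of Stat2 on DNA, was not called, at 16.9 and 17.8 FPKM in DMSO and 18.3, 17.5 and 15.6 FPKM with decitabine. The ligand Ifnb1 had 0 FPKM in both DMSO libraries and 0, 0.118 and 0.0832 FPKM with decitabine, and Ifna4 was above 0 only in DMSO replicate 1. The receptor genes Ifnar1 and Ifnar2 were not called.

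**Figure D3:**
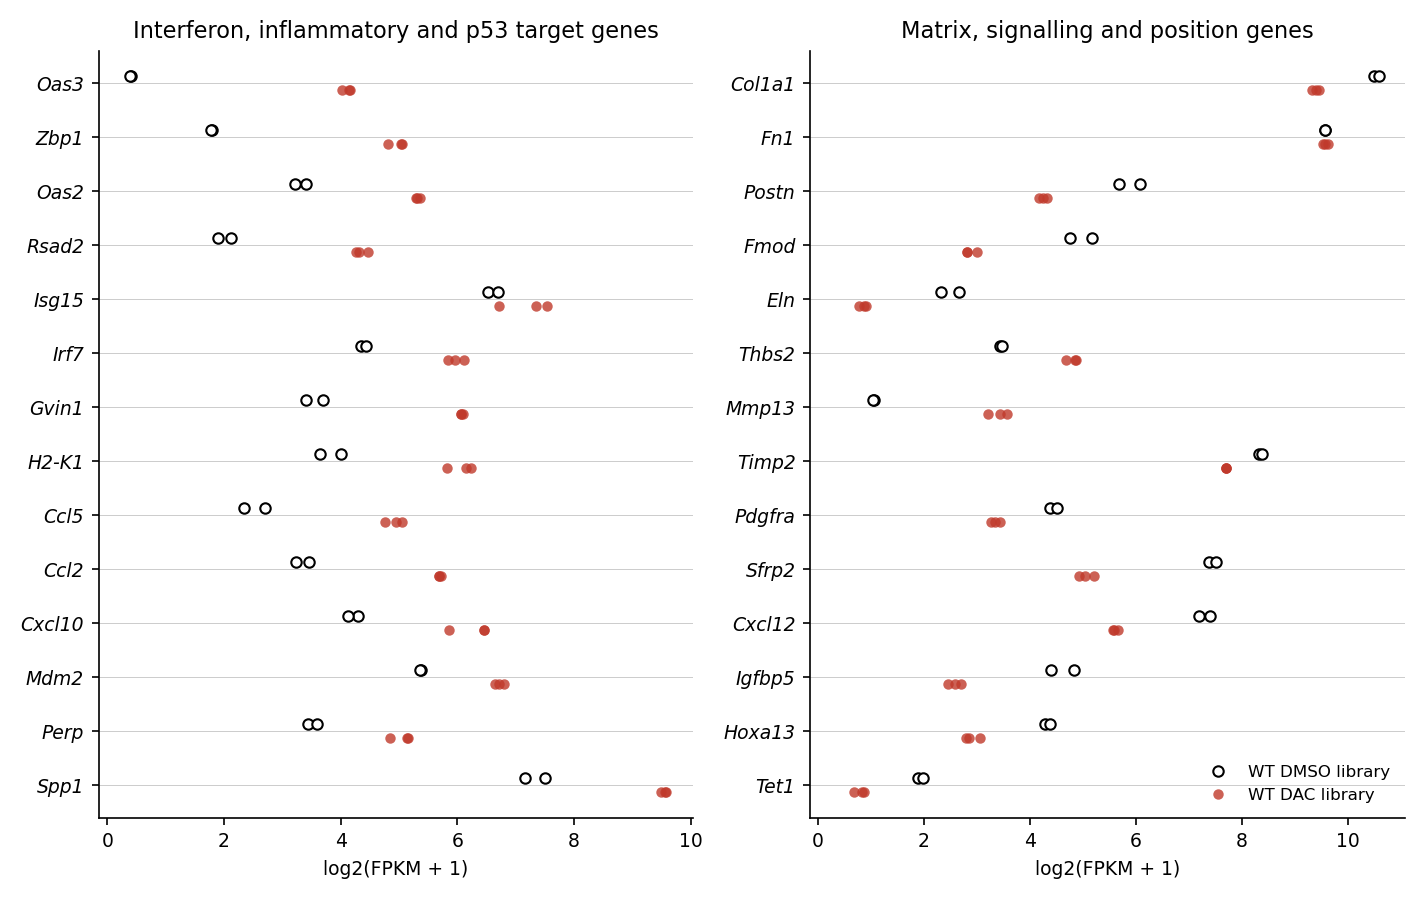
Level of 28 genes in each WT library as log2(FPKM + 1), with open circles for the 2 DMSO libraries and red points for the 3 decitabine libraries. In the left panel the decitabine libraries lie above both DMSO libraries for every gene except Isg15, where replicate 3 meets them; in the right panel only Thbs2 and Mmp13 lie higher with decitabine, and Fn1 does not separate.

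Secreted inflammatory factors and the NF-kB feedback genes also rose. Among 22 tested secreted factors 15 rose and 1 fell, with a median of 0.90, and among 11 tested feedback and adhesion genes 9 rose and 1 fell. Over all genes 14.5% rose and 13.8% fell. Of the 22 secreted factors 6 were under 1 FPKM in both DMSO libraries, so they had little room to fall and passed the filter through others. Ccl5, a chemokine for T cells, was at 4.08 and 5.49 FPKM in DMSO and 32.03, 29.8 and 26.1 FPKM with decitabine (difference 2.40 ± 0.14, limma adjusted p = 1.25e-05). Ccl2, which attracts monocytes, rose 5.52-fold from 9.94 and 8.46 FPKM to 51.5, 50.5 and 50.4 FPKM. Spp1, the secreted phosphoprotein osteopontin, reached the highest level of the group, from 180.1 and 141 FPKM to 765, 753 and 721 FPKM. Cxcl10, a chemokine that interferon induces, rose from 18.6 and 16.5 FPKM to 87.1, 87.2 and 56.9 FPKM, with replicate 3 the lowest of the decitabine libraries. The exception was Cxcl12, the homeostatic chemokine of stromal cells, which fell 3.28-fold from 145 and 167 FPKM to 46.3, 49.5 and 47.1 FPKM (limma adjusted p = 7.27e-06). Tnfaip3, the deubiquitinase that ends NF-kB signalling, rose from 2.31 and 2.21 FPKM to 5.78, 5.13 and 5.702 FPKM and the adhesion molecule Icam1 from 0.513 and 0.575 FPKM to 2.06, 2.25 and 2.15 FPKM, while the adhesion molecule Vcam1 fell from 42.7 and 48.3 FPKM to 22.8, 23.4 and 23.4 FPKM. C3, the central component of complement, rose from 2.78 and 2.76 FPKM to 11.2, 11.6 and 12.4 FPKM. Its list did not follow: of 10 tested complement genes 2 rose (C3 and the inhibitor Serping1), C1ra, a protease of the first component, fell from 33.6 and 40.3 FPKM to 24.1, 22.7 and 21.9 FPKM, and 7 were not called, with a median of −0.23.

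Targets of p53 rose in the arms of arrest and of death. Of 22 tested targets of arrest and repair 15 rose and 2 fell, with a median of 0.59, and of 12 tested targets of cell death 9 rose and none fell, with a median of 0.50. Over all genes 14.5% rose and 13.8% fell. Mdm2, the ubiquitin ligase that limits p53, was at 40.5 and 39.9 FPKM in DMSO and 98.7, 103 and 109.8 FPKM with decitabine (difference 1.35 ± 0.08, limma adjusted p = 1.1e-05). Ccng1, a cyclin of p53 feedback, rose from 49.99 and 45.4 FPKM to 100.2, 109 and 115 FPKM. Perp, a membrane effector of apoptosis, went from 9.84 and 10.998 FPKM to 34.4, 34.6 and 27.9 FPKM, and Pmaip1 (Noxa), a BH3-only death protein, from 3.25 and 3.49 FPKM to 10.7, 10.8 and 10.7 FPKM. Sesn1, a stress sensor of mTOR, fell from 12.7 and 14.2 FPKM to 6.196, 6.01 and 5.71 FPKM, and Ddb2, a nucleotide excision repair protein, from 5.87 and 6.13 FPKM to 4.59, 4.51 and 4.07 FPKM. Bax, the pore-forming death protein, was at 29.8 and 31.9 FPKM in DMSO and 49.7, 48.4 and 32.4 FPKM with decitabine and was not called. Replicate 3 lay near DMSO, and without it the difference was 0.65 (limma adjusted p = 0.0532).

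Of 30 tested genes of mitosis 8 rose (26.7%, beside 14.5% of all genes) and none fell, with a median of 0.15, but the count was 3 with only the WT libraries in the fit and 14 after median centring. It was 1 without WT DMSO replicate 2, 4 without WT DMSO replicate 1 and 5 without WT DAC replicate 1. Plk1, a mitotic kinase, rose, at 31.7 and 30.0 FPKM in DMSO and 40.4, 41.5 and 36.7 FPKM with decitabine (limma adjusted p = 0.108 without WT DMSO replicate 2), and Mki67, a marker of cycling cells, was not called at 66.4 and 65.3 FPKM in DMSO and 70.6, 71.8 and 70.4 FPKM with decitabine. Of 37 tested genes of DNA replication 4 rose and 5 fell, close to the background. Rrm2, the ribonucleotide reductase subunit that p53 and E2F are known to control, was the largest of them, from 22.7 and 22.8 FPKM to 42.2, 41.7 and 37.8 FPKM. Immediate early genes split: 10 of 20 rose and 8 fell (50% and 40%, beside 14.5% and 13.8% of all genes). Fosl1 rose from 12.5 and 9.53 FPKM to 55.4, 54.5 and 58.02 FPKM and Myc from 11.3 and 11.2 FPKM to 34.2, 31.6 and 26.3 FPKM, both transcription factors of growth, while Fos fell from 97.6 and 142 FPKM to 44.6, 55.7 and 39.8 FPKM and Egr2 from 7.91 and 11.4 FPKM to 2.82, 2.81 and 3.78 FPKM.

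Metabolic lists differed in direction. Of 28 tested glycolysis and hypoxia genes 19 rose and 1 fell, with a median of 0.46, a count that fell to 8 without WT DMSO replicate 2. Hk2, which traps glucose in the cell, rose from 2.15 and 1.496 FPKM to 5.7004, 4.98 and 3.84 FPKM and Eno1, the glycolytic enolase, from 83.03 and 63.6 FPKM to 150.4, 145 and 143 FPKM. Of 20 tested genes of unfolded protein and amino acid stress 9 rose, led by Asns, asparagine synthetase, from 9.49 and 7.12 FPKM to 21.4, 21.996 and 22.4 FPKM, and 4 rose without DMSO replicate 2. Of 24 tested genes of cholesterol synthesis 2 rose and 4 fell, with a median of −0.10, and of 11 tested genes of apolipoproteins and lipid storage 3 rose and 1 fell, with a median of −0.11. Beside these lists, 14.5% of all genes rose and 13.8% fell. The single largest named change belonged to Apob, the scaffold of lipoproteins made by liver and intestine (chr12:7977629-8016839), at 0.271 and 0.397 FPKM in DMSO and 32.4, 31.01 and 28.4 FPKM with decitabine. Its mean was 91.6-fold higher (difference 4.57 ± 0.10, limma adjusted p = 1.36e-07). Apob was under 1 FPKM in the WT and KO DMSO libraries and passed the filter only through decitabine libraries, so its test is not separate support. In the 3 libraries labelled WT_NT_siRNA Apob was at 0.107, 0.0826 and 0.134 RPKM. Those libraries did not resemble the DMSO libraries in the genes that fell: all 12 of the largest falls under the naming rule were lower there than in any decitabine library. Sfrp2 was at 4.56, 2.99 and 3.35 RPKM and Kctd12 at 0.0782, 0.0304 and 0.0303 RPKM, values from a separately normalised table that cannot be set against FPKM exactly. Of the 12 largest rises under the naming rule all 12 were lower in those libraries than in any decitabine library, but only 6 were lower than in both DMSO libraries. Xdh, xanthine oxidoreductase of purine breakdown, rose from 0.952 and 0.956 FPKM to 10.9, 10.2 and 9.22 FPKM.

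The fibroblast programme of matrix production fell. Of 36 tested genes of fibrillar collagen and matrix 25 fell and 5 rose, with a median of −0.59, beside 13.8% of all genes falling. Col1a1, the main chain of type I collagen, was at 1440 and 1529 FPKM in DMSO and 698, 670.0 and 638 FPKM with decitabine, a 2.22-fold lower mean (difference −1.15 ± 0.10, limma adjusted p = 8.87e-05). Fmod, a proteoglycan that orders collagen fibrils, fell from 26.1 and 35.1 FPKM to 6.03, 6.02 and 6.98 FPKM, and Mfap4, a microfibril protein, from 8.41 and 10.7 FPKM to 1.13, 1.63 and 1.79 FPKM. Postn, periostin, fell from 50.3 and 66.7 FPKM to 16.9, 18.95 and 17.9 FPKM and Eln, elastin, from 4.01 and 5.29 FPKM to 0.885, 0.720 and 0.834 FPKM. The fall was not shared by all: Fn1, fibronectin, was not called at 762 and 754 FPKM in DMSO and 743, 756 and 787 FPKM with decitabine, and Thbs2, an antiangiogenic thrombospondin, rose from 9.77 and 10.1 FPKM to 27.998, 28.2 and 24.6 FPKM. In basement membrane 10 of 15 tested genes fell and 3 rose. Lamb2, a laminin chain, fell from 80.8 and 89.9 FPKM to 50.2, 50.9 and 41.9 FPKM, and Col18a1, the source of endostatin, rose from 3.79 and 3.65 FPKM to 14.2, 14.4 and 10.9 FPKM.

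Enzymes that degrade matrix divided by member. Of 18 tested proteases and inhibitors 9 rose and 7 fell (50% and 38.9%, beside 14.5% and 13.8% of all genes). Mmp13, an interstitial collagenase, rose from 1.08 and 1.05 FPKM to 8.24, 10.9 and 9.87 FPKM (9.08-fold), Mmp3, stromelysin, from 13.5 and 15.1 FPKM to 32.8, 39.6 and 37.4 FPKM, and the inhibitor Timp1 from 52.8 and 49.2 FPKM to 115, 113 and 93.3 FPKM. Mmp2, a gelatinase that fibroblasts make constitutively, fell from 129.8 and 148 FPKM to 81.5, 83.5 and 88.96 FPKM and the inhibitor Timp2 from 321 and 330.5 FPKM to 208, 206 and 208 FPKM. Of 11 tested fibroblast markers 9 fell and 1 rose. Pdgfra, the PDGF receptor, fell from 19.8 and 21.9 FPKM to 8.66, 9.82 and 9.15 FPKM, while Thy1, a surface marker of fibroblasts, rose from 26.9 and 30.7 FPKM to 55.98, 52.5 and 49.4 FPKM. The summed level of all 12 markers was 2546 and 2658 FPKM under DMSO and 1608, 1585 and 1430 FPKM with decitabine. Col1a1 was the largest part in each library, at 1440 and 1529 FPKM under DMSO and 698, 670 and 638 FPKM with decitabine. Col1a1, Col1a2, Lum and Dcn also belong to the matrix list, so the sum is not separate from it. The part of the markers in the fall of matrix genes was not tested. The count of markers that fell was 4 without WT DMSO replicate 2.

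Markers of other cell types were checked beside these. Of the epithelial list 4 of 7 tested genes rose, 6 of the 7 being under 1 FPKM in both DMSO libraries and having passed the filter through others: Krt18, a simple-epithelium keratin, from 0.466 and 0.590 FPKM to 4.88, 5.69 and 3.19 FPKM, Krt8, its partner, from 0 and 0.141 FPKM to 1.73, 1.64 and 1.31 FPKM, Krt19 from 3.13 and 2.31 FPKM to 8.83, 8.704 and 4.48 FPKM and Cldn4, a tight junction protein, from 0.126 and 0.316 FPKM to 1.61, 1.76 and 1.04 FPKM.  The summed level of the 11 listed was 4.61 and 4.55 FPKM in the DMSO libraries and 18.1, 19.5 and 11.8 FPKM with decitabine, yet Epcam was at 0.0612 FPKM or less and Cdh1, E-cadherin, at 0.264 FPKM or less in every WT library. Of 8 tested mesothelial markers 2 rose: Msln, mesothelin, from 6.801 and 5.02 FPKM to 34.4, 38.5 and 26.6 FPKM and Podxl, a sialomucin of the cell surface, from 1.62 and 1.86 FPKM to 2.71, 2.43 and 4.15 FPKM, while Wt1, Lrrn4, Upk1b and Gpm6a were at or near 0 outside replicate 3. Krt19 lost its call without WT DMSO replicate 2 (limma adjusted p = 0.107), and Podxl without either DMSO library (0.13 and 0.0779). Of the 8 mesothelial markers 6 were under 1 FPKM in both DMSO libraries and passed the filter through others. The summed level of the 8 mesothelial markers was 9.07 and 7.69 FPKM against 37.7, 41.4 and 34.6 FPKM, with Msln the largest part in each library. The macrophage markers Adgre1 and C1qa were at 0 in all 5 libraries, Ptprc, the leukocyte antigen CD45, stayed at 0.00675 FPKM or less, and the endothelial marker Cdh5 at 0.031 FPKM or less. Other members of these lists were present: Cd14, a receptor for lipopolysaccharide, rose from 2.86 and 1.74 FPKM to 6.37, 6.05 and 4.53 FPKM, Cd68, a lysosomal protein, was at 10.1 and 12.9 FPKM in DMSO and 9.54, 12.5 and 11.6 FPKM with decitabine and was not called, and Flt1, a VEGF receptor, rose from 0.405 and 0.370 FPKM to 0.982, 0.821 and 0.879 FPKM (limma adjusted p = 0.0576 without WT DMSO replicate 2). The summed level of the 10 macrophage markers was 13.2 and 15.3 FPKM against 16.43, 19.13 and 16.65 FPKM, and that of the 9 endothelial markers 1.78 and 1.52 FPKM against 2.22, 2.23 and 2.11 FPKM. Their part in the results was not tested.

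Secreted signals of mesenchyme moved both ways. Sfrp2, a secreted modulator of Wnt, was at 167 and 182 FPKM in DMSO and 29.5, 32.1 and 36.1 FPKM with decitabine, a 5.35-fold lower mean (difference −2.39 ± 0.14, limma adjusted p = 1.35e-05). Rspo3 and Rspo2, secreted amplifiers of Wnt signalling, fell from 25.3 and 31.6 FPKM to 8.998, 8.64 and 7.89 FPKM and from 23.6 and 25.4 FPKM to 7.37, 8.77 and 9.91 FPKM. Axin2, a feedback target of Wnt, rose from 0.912 and 0.687 FPKM to 2.54, 2.21 and 1.87 FPKM, and Tcf7, a transcription factor of the pathway, from 4.42 and 3.898 FPKM to 10.2, 10.6 and 10.4 FPKM. Of 13 tested Wnt genes 3 rose and 5 fell (23.1% and 38.5%, beside 14.5% and 13.8% of all genes). Igfbp5 and Igfbp7, which bind insulin-like growth factors, went opposite ways, from 20.2 and 27.3 FPKM to 4.497, 4.98 and 5.46 FPKM and from 41.7 and 36.6 FPKM to 105, 106 and 119.8 FPKM. In the TGF-beta and BMP axis 8 of 19 rose and 8 fell (42.1% each way). Id2, a target of BMP, fell from 54.4 and 58.2 FPKM to 19.7, 21.7 and 19.2 FPKM, and Inhba, the activin A subunit, rose from 16.3 and 15.6 FPKM to 40.9, 42.1 and 42.5 FPKM. Other large falls were Kctd12, an auxiliary subunit of GABA-B receptors, from 8.57 and 9.76 FPKM to 0.357, 0.726 and 0.804 FPKM, and Penk, proenkephalin, from 86.8 and 121 FPKM to 23.9, 25.8 and 28.5 FPKM.

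**Figure D4:**
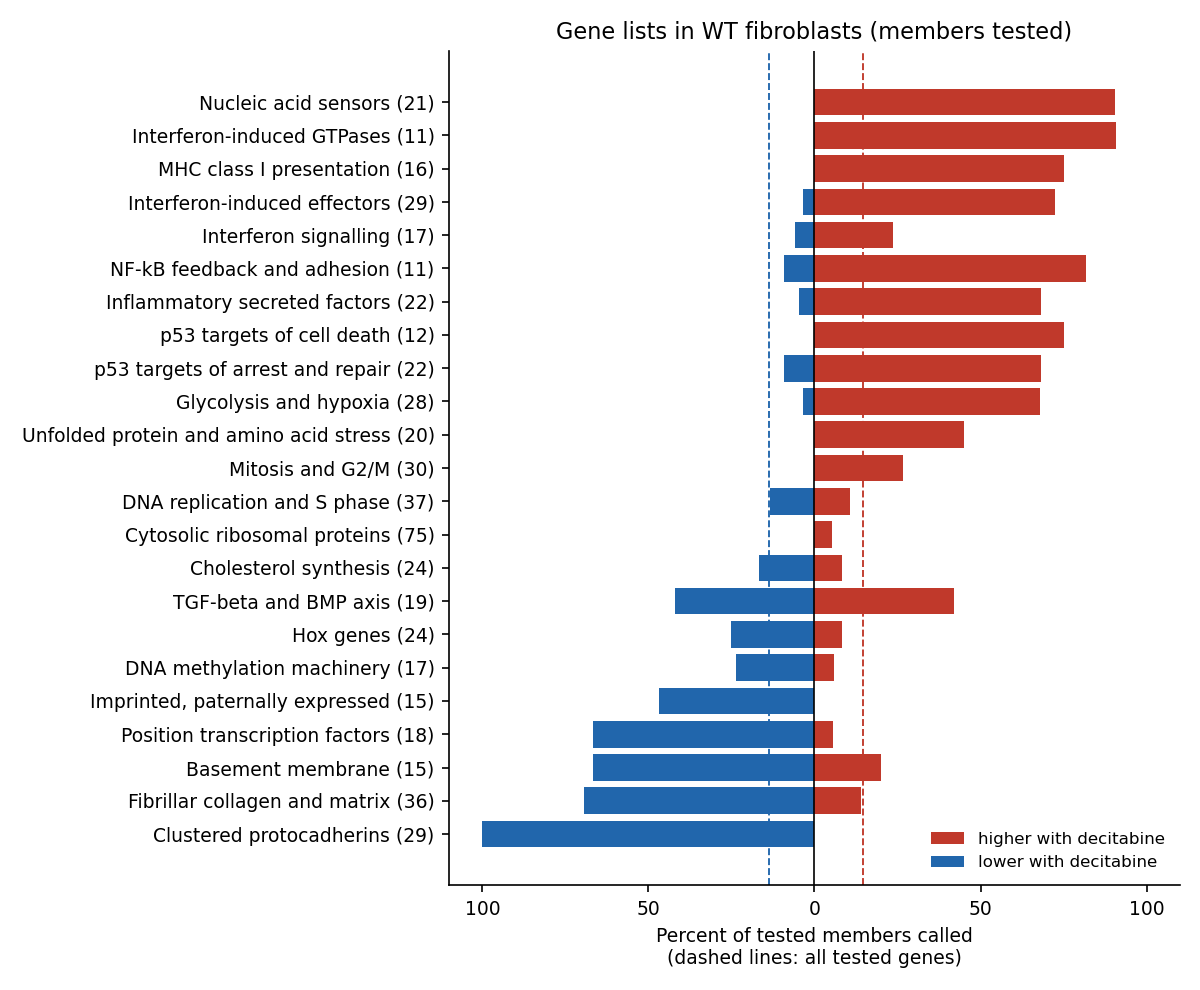
Share of the tested members of 23 gene lists that rose (red, right) or fell (blue, left) with decitabine in WT cells, in percent, with the number tested in brackets. Dashed lines mark the shares over all genes, 14.5% higher and 13.8% lower; GTPases, sensors and NF-kB feedback genes reach furthest right and clustered protocadherins furthest left.

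Transcription factors that record position in the embryo fell more often than they rose. Of 18 tested position factors 12 fell and 1 rose, with a median of −0.46, and 7 fell without WT DMSO replicate 2. Msx1, a homeobox factor of limb and craniofacial mesenchyme, was at 6.08 and 5.63 FPKM in DMSO and 2.52, 1.83 and 1.44 FPKM with decitabine. Shox2, a factor of proximal limb, fell from 11.3 and 11.3 FPKM to 4.499, 4.58 and 5.402 FPKM, and Tbx5, a factor of forelimb and heart, from 27.4 and 28.6 FPKM to 14.8, 15.3 and 19.01 FPKM. Of 24 tested Hox genes 6 fell (25%, beside 13.8% of all genes) and 2 rose (8.33%, beside 14.5%). Of the 24, 11 were under 1 FPKM in both DMSO libraries and passed the filter through others, so they had little room to fall. Hoxa13, the most distal gene of its cluster, fell 2.95-fold from 18.6 and 19.7 FPKM to 6.16, 5.95 and 7.37 FPKM (difference −1.43 ± 0.10, limma adjusted p = 3.44e-05), and Hoxd11 from 20.7 and 19.7 FPKM to 10.6, 10.3 and 10.5 FPKM. Hoxa11, at 5.003 and 4.57 FPKM in DMSO and 4.93, 5.16 and 3.03 FPKM with decitabine, was not called.

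Clustered protocadherins, cell-surface recognition proteins of neurons whose promoters are chosen one by one under the influence of DNA methylation, fell without exception among those tested. All 29 tested of 57 listed fell, beside 13.8% of all genes, with a median of −0.82, and the other 28 did not pass the filter. Each of the 29 was lower in all 3 decitabine libraries than in both DMSO libraries, a condition that 27.7% of all tested genes met. In the beta cluster, where each gene is a single exon of its own, Pcdhb17 was at 6.49 and 6.44 FPKM in DMSO and 2.54, 2.48 and 3.32 FPKM with decitabine (difference −0.99 ± 0.10, limma adjusted p = 0.000213). Pcdhb19 fell from 2.804 and 3.27 FPKM to 0.736, 0.786 and 0.870 FPKM and Pcdhb22 from 5.07 and 4.76 FPKM to 1.77, 1.93 and 1.99 FPKM. The 21 tested genes of the gamma cluster share constant exons, so their reads cannot be assigned with certainty and they are not independent of one another. The highest of them, Pcdhgc3, fell from 21.9 and 23.3 FPKM to 15.1, 14.4 and 14.5 FPKM. Outside the clusters, Pcdh18 fell from 45.4 and 50.7 FPKM to 16.2, 16.9 and 19.5 FPKM and Pcdh19 rose from 9.55 and 9.57 FPKM to 18.6, 18.8 and 21.2 FPKM, both named after their values were seen.

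**Figure D5:**
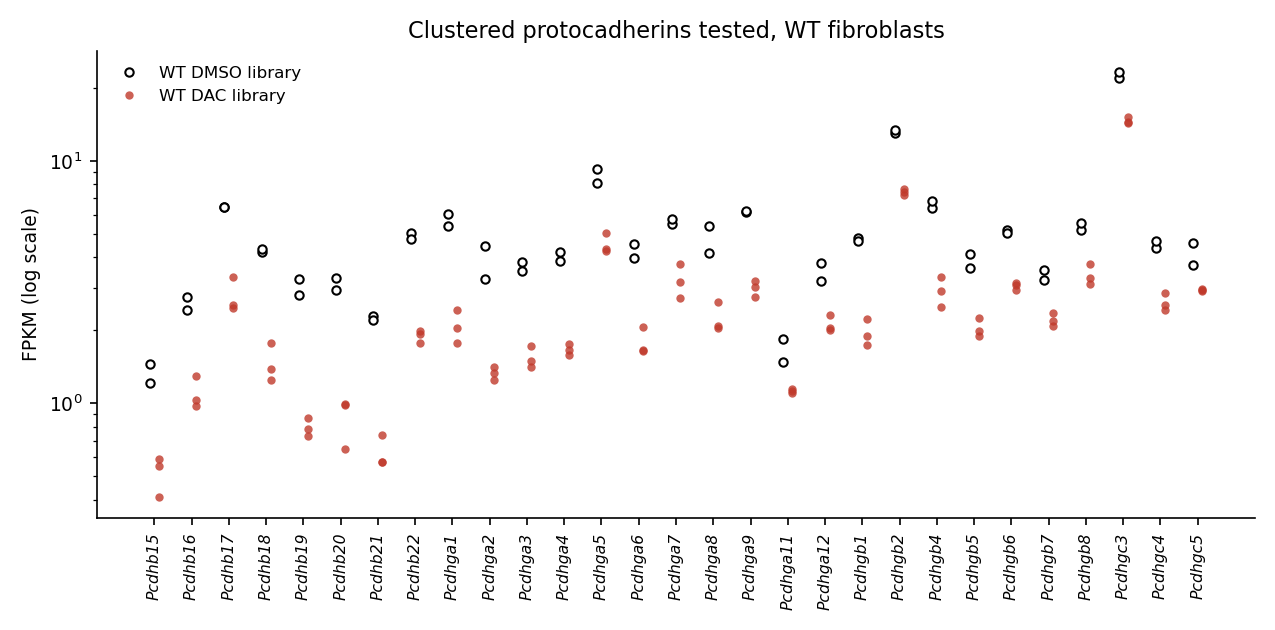
FPKM on a log axis of the 29 tested clustered protocadherins in each WT library, with open circles for the 2 DMSO libraries and red points for the 3 decitabine libraries. For every gene all red points lie below both open circles.

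Imprinted genes, which are transcribed from one parental copy under the control of methylated regions, fell or were not called where tested. Of 15 tested paternally expressed genes 7 fell (46.7%, beside 13.8% of all genes) and none rose (beside 14.5%). Of 8 tested maternally expressed genes 3 fell (37.5%) and none rose. In DMSO 3 of the 15 and 2 of the 8 were under 1 FPKM in both libraries. Some members had higher values with decitabine. Peg12, not called, was at 0.667 and 0.626 FPKM in DMSO and 1.40, 1.73 and 0.698 FPKM with decitabine. Phlda2, which did not pass the filter, was at 0.0861 and 0 FPKM in DMSO and 0.327, 0.858 and 0.247 FPKM with decitabine. Mest, a hydrolase-like protein of mesoderm, was at 14.6 and 19.6 FPKM in DMSO and 3.06, 3.59 and 4.85 FPKM with decitabine (difference −1.91 ± 0.16, limma adjusted p = 6.91e-05). Peg10, a retrotransposon-derived gene, fell from 61.1 and 62.5 FPKM to 16.3, 16.5 and 21.6 FPKM. Igf2, the growth factor, fell from 5.38 and 5.72 FPKM to 1.52, 2.07 and 2.95 FPKM, and H19, the noncoding RNA of the same domain, from 28.4 and 33.2 FPKM to 13.4, 14.3 and 20.5 FPKM (limma adjusted p = 0.0609 without WT DMSO replicate 2). Grb10, an inhibitor of insulin signalling, fell from 51.1 and 50.9 FPKM to 29.9, 30.7 and 31.6 FPKM. Plagl1, a zinc finger regulator, was at 141 and 139 FPKM in DMSO and 84.2, 88.4 and 165 FPKM with decitabine and was not called, with replicate 3 above DMSO and the others below it. Without replicate 3 it was called lower (difference −0.70, limma adjusted p = 0.0317). Peg3, Magel2, Usp29 and Meg3 were under 0.3 FPKM in every WT library.

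Zinc finger genes named Zfp, a family that holds many repressors of retroelements, had 56 of 315 tested members fall (17.8%, beside 13.8% of all genes) and 15 rise, with a median of −0.15. Zfp521, a regulator of mesenchymal and neural progenitors, fell from 46.04 and 50.6 FPKM to 17.95, 16.9 and 21.97 FPKM, while Zfp365 rose from 6.32 and 6.202 FPKM to 14.5, 14.9 and 14.4 FPKM. Replication-dependent histone genes (2 rose and 1 fell of 59) and cytosolic ribosomal protein genes (4 rose and none fell of 75) stayed below the background shares.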

How the data were processed

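RNA libraries were made from total RNA with a stranded paired-end kit, per the labels' protocols. The submitters' processing notes name STAR, Bowtie2, deepTools and the build mm10; tool versions, the read counter, the annotation and strand setting were not stated in the sources used here. The authors deposited FPKM per gene for the 10 libraries of the decitabine experiment, and RPKM for the libraries with siRNA, used here only as levels. Whole reads were recovered from the FPKM steps for 100% of the 30078 genes above 0, within 0.01 of a read. Each gene's length was taken as the smallest that gave whole reads, so that share is no independent check. Genes at 1 FPKM or more in 2 or more of 10 libraries were kept (16434 of 43432). A pseudocount of 1 was added and log2 values were fitted in limma 3.58.1 (R 4.3.3) with an intensity trend and 4 groups; a fold on that scale understates the change of low genes. Ratios are of mean FPKM. Adjusted p-values follow Benjamini and Hochberg over all genes tested. The code was tested on simulated data. Positions and promoters come from RefSeq GRCm38.p6 by symbol (14656 genes, 89.2%).

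The members and gene lists were chosen with earlier results of these data known. The rule for named genes took the 12 largest called changes each way at 5 FPKM or more, up to 4 called members each way and 2 uncalled members of each list, genes near 0 in one group and on in the other, and Anp32e, H2afz and H2afv. A further 21 tested genes that the text names fall outside it and were chosen after their values were seen: the satellite loci, mesothelial markers, small RNAs, interferon receptors, Irf9, B2m, Peg3, Meg3, Pcdh18, Pcdh19 and single clustered protocadherins. Alternatives were another pseudocount, filters, median centring, a replicate block, only WT libraries, limma-voom on recovered reads, other thresholds and each replicate left out; voom with median-ratio totals was chosen after seeing the data.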

Additional observations from a re-analysis of the deposited data

Results flagged for a closer look

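The response to decitabine was compared between WT and KO cells by the interaction term of the fit, KO minus WT on the log2 scale, for the 163 tested genes that the naming rule or the report names. Over all genes 24.1% had a called difference in limma. Of the 163 named genes 99 had one (60.7%), and 16 of those 99 differed by 4-fold or more. Many of the 163 were named for a large change in WT, which the interaction term also contains. Their share therefore cannot be set against that of all genes. Complement C3 rose in WT (1.76) and had a change of −3.07 in KO, a difference of −4.83 ± 0.15 (limma adjusted p = 7.81e-07). The MHC heavy chains H2-Q6 and H2-K1 differed by −4.09 ± 0.29 and −2.87 ± 0.24, both uncertain because of near-identical copies, and Irf5 by −3.13 ± 0.16. The chemokine Ccl2 differed by −2.68 ± 0.11 and the ligand Wnt10a by −2.33 ± 0.21. Elastin (Eln) fell in WT and had the larger change in KO, a difference of −2.10 ± 0.20, while Penk fell in WT (−1.94) and had a change of 0.69 in KO, a difference of 2.63 ± 0.23.

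Markers of mesothelium and simple epithelium made up the rest. The differences were −4.45 ± 0.18 for Lrrn4, −3.98 ± 0.57 for Upk3b, −3.76 ± 0.17 for Gpm6a, −3.35 ± 0.16 for Wt1, −3.15 ± 0.21 for Upk1b, −2.61 ± 0.28 for Krt18, −4.03 ± 0.21 for Podxl and −2.20 ± 0.23 for Msln. Upk3b was at 372 and 396 FPKM in the KO DMSO libraries and at 29.6 to 35.1 FPKM in the KO DAC libraries, against at most 2.06 FPKM in any WT library. The part of this in the other differences was not tested.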

How the results depend on the processing

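No result reversed its direction, and no gene was called in the opposite direction under any alternative tried. Leaving out 1 library gave 1325 to 2612 genes higher and 1166 to 2127 lower, 307 to 342 and 221 to 322 of them by 2-fold or more. The low ends of the first pair came from leaving out WT DMSO replicate 2. Of genes 2-fold higher there were 637 with a pseudocount of 0.1, 666 with limma-voom on recovered reads and 676 with its median-ratio totals, against 319. Of genes 2-fold lower there were 467, 551 and 545 in the same order, and 178 with a filter at 5 FPKM, against 277; the cause was not tested. Without WT DMSO replicate 2 counts were lowest for 4 lists: with 1 library left out the ranges were 8 to 19 for glycolysis, 7 to 12 for position factors, 4 to 9 for fibroblast markers and 4 to 11 for unfolded protein stress. The filter at 5 FPKM left 10 clustered protocadherins lower, since fewer genes were tested. Mitosis genes higher numbered 14 after median centring, 3 with only WT libraries and 1 to 12 with 1 library left out. Genes near 0 in DMSO and on with decitabine numbered 26 at 0.05 and 0.5 FPKM, 6 at 0.2 and 2 FPKM and 17 to 28 with 1 library left out. Median centring gave 2836 genes higher and 1884 lower. Of 139 called genes that the naming rule or the text names 16 lost the call under some alternative.

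Libraries with the same number did not deviate together (correlations of their deviations over genes of −0.0248 for number 1 and 0.00133 for number 2), so the numbers gave no sign of pairing. The deviations of the 2 DMSO libraries mirror each other, so this check cannot exclude pairing. With the replicate number as a block 1960 genes were higher and 1735 lower, and 4 mitosis genes were higher. One read in 1 kb is worth about 0.03 FPKM, which limits the low germline genes.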

Other observations

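Other gene groups not described above moved in part. Of 12 tested genes known as targets of NRF2, the regulator of antioxidant defence, 6 rose and 3 fell (50% and 25%, beside 14.5% and 13.8% of all genes). Txnrd1, a thioredoxin reductase, rose from 46.7 and 42.8 FPKM to 66.1, 67.2 and 59.7 FPKM (decitabine after DMSO), and Gsr, glutathione reductase, from 27.97 and 25.6 FPKM to 37.3, 38.7 and 37.3 FPKM. Gstm1, a glutathione transferase, fell from 56.3 and 54.5 FPKM to 22.5, 19.99 and 24.5 FPKM (difference −1.28 ± 0.08, limma adjusted p = 2.47e-05).

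Of 14 tested genes of smooth muscle and myofibroblasts 6 rose and 2 fell (42.9% and 14.3%, beside 14.5% and 13.8% of all genes). Actg2, a smooth muscle actin, rose from 0.751 and 0.976 FPKM to 5.08, 5.59 and 3.12 FPKM, and Ccn2, a matricellular factor, from 10.9 and 8.16 FPKM to 27.9, 28.7 and 23.6 FPKM. Acta2, the actin that marks myofibroblasts, was not called, at 217 and 173 FPKM in DMSO and 264, 268 and 184 FPKM with decitabine. Comp, a cartilage matrix protein, fell from 12.04 and 14.7 FPKM to 3.696, 4.37 and 3.96 FPKM, while Bglap, osteocalcin, rose from 0.686 and 0.925 FPKM to 3.1004, 3.25 and 2.83 FPKM. Sox2, a pluripotency and neural factor, rose from 3.26 and 3.83 FPKM to 8.48, 7.88 and 7.03 FPKM, and Nanog was at 0.312 FPKM or less in every WT library.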
